A study of Bos taurus with 16 samples.

Results

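The Wnt ligands, receptors and pathway proteins of bovine whole blood were followed through 102 array probes of 49 genes, out of 43653 probes and 16966 gene symbols on the array. Members were chosen by gene symbol alone: every probe whose symbol in the deposited averages table named a WNT ligand, a Frizzled receptor, LRP5 or LRP6, a secreted inhibitor of the SFRP or DKK families, a DVL, AXIN, APC, GSK3 or CTNNB1 gene, or a factor of the TCF and LEF1 family. The rule uses no measured value. The set held 25 probes of 17 ligand genes, 32 probes of 12 receptor genes, 16 probes of 8 secreted inhibitor genes, 18 probes of 8 cytoplasmic genes and 11 probes of 4 nuclear genes. In 30 genes several probes, at most 5, read the same gene, so probes of 1 gene were not independent members. A RefSeq accession was attached to 80 of the 102 probes, and 73 of these matched the RefSeq gene table, all 73 under the same symbol.

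Blood came from lactating Holstein Friesian cows, 10 in all, with 5 given a commercial microbial supplement and 5 given water only. The supplement held a yeast culture with fermentation products of Enterococcus faecium, Lactobacillus acidophilus, Bacillus subtilis and Aspergillus oryzae. The 4 groups were LPS (blood drawn on day 60 from supplemented cows and exposed in the tube to 100 ng/ml lipopolysaccharide, a bacterial cell wall component), probiotic (supplemented cows on day 60), untreated (cows on water only, day 60) and day 0 (blood drawn before supplementation, labelled as the supplemented arm's). All blood was held for 30 min at 37 °C and 5% CO2 before RNA extraction, which included a differential lysis of red and white cells. RNA was pooled within a group, and each pool was labelled with Cy3 and hybridised to 4 one-colour Agilent arrays, 16 arrays in all. The p-values below therefore rest on how far repeat hybridisations of the same RNA varied, and say nothing of differences among cows.

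Wnt proteins are secreted lipid-modified ligands that bind a Frizzled receptor together with the co-receptor LRP5 or LRP6. Without a ligand, a cytoplasmic complex of AXIN, APC and the GSK3 kinases marks beta-catenin, the product of CTNNB1, for destruction; with a ligand, Dishevelled proteins (DVL1, DVL2 and DVL3) block that complex and beta-catenin joins TCF7, LEF1, TCF7L1 or TCF7L2 on DNA. In blood the pathway is best known through TCF7 and LEF1, which are transcription factors of T cell development and of naive T cells, and through WNT5A, a ligand that mostly signals without beta-catenin and is made by activated myeloid cells.

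Because a one-colour array reads a gene through 1 short oligonucleotide, the probe letters are given here for the members on which the results turn, 5′ to 3′ as in the deposited table. The first 6 are shown whole, at 60 bases each, and cover a ligand, a Dishevelled protein, a secreted inhibitor, a receptor, a kinase and APC.
WNT4 (A_73_P095531): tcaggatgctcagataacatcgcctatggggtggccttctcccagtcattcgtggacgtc
DVL2 (A_73_116423): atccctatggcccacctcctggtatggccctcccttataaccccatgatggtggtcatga
SFRP5 (A_73_P251371): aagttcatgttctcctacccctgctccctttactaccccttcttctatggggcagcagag
FZD10 (A_73_105017): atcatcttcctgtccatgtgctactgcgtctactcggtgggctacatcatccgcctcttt
GSK3B (A_73_P195677): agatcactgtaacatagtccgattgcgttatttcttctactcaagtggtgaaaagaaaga
APC (A_73_P078806): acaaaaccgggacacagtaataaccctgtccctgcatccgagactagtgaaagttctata
The next 7 are shown by bases 1 to 30 of 60. They include the 2 LEF1 probes, which ran opposite ways, and the second probes of DVL2 and GSK3B.
LEF1 (A_73_P087266): tcaaagatctggaactgtttgaaataaaaa
LEF1 (A_73_P126706): tcgtgtttcttcttctcctcaagcttttat
DVL2 (A_73_113149): atgtggaagggggttggttcccctagacag
GSK3A (A_73_106193): gagctcctgatgtcttagttttcacagtaa
WNT5A (A_73_P205047): ggccccgctcccaggacccacttatttata
TCF7L1 (A_73_P114771): ctaagctgccccccttgacctatgcaggct
GSK3B (A_73_P290431): acaaccaccagtttacttgagtgtcactca

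Before any comparison, the arrays themselves were compared over the 671 probes that were well above background on all 16. Untreated arrays correlated with the arrays of the other groups at a Spearman coefficient of 0.137 to 0.383 (48 pairs of arrays, across probes), against 0.583 to 0.844 among themselves. Array 4 of the LPS group stood at 0.632 to 0.639 with its own pool, and array 4 of day 0 at 0.798 to 0.822 with its own, while the remaining LPS, probiotic and day 0 arrays correlated at 0.867 to 0.993. The 4 arrays of a group shared a slide that held no other group, so the effects of slide and group cannot be told apart. The probiotic and LPS arrays shared a scan day. Of 24 blood cell marker genes on the array, 15 were above background on all 4 LPS arrays, 18 on all probiotic arrays, 7 on all untreated arrays and 13 on all day 0 arrays. The summed net signal of the 4 T cell markers was 3137 to 44469 on LPS arrays, 33319 to 41466 on probiotic arrays, 233 to 1218 on untreated arrays and 1286 to 8675 on day 0 arrays. Of 10 marker genes of tissues other than blood, 4 were above background on all LPS arrays and 4 on all probiotic arrays. On all untreated arrays 1 was, and on all day 0 arrays 3. Untreated arrays thus gave the lowest count in both marker lists, and over all probes the lowest share, 5.57%. The cause was not tested. In such bulk samples, fewer cells of a type and less RNA per cell cannot be told apart, and the part of these shifts in the Wnt results was not tested.

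In each group most members were not above background on all 4 arrays, as was so for most probes of the array. A spot counted as above background when the scanner software marked it well above its local background, and 55 probes of 37 genes did so on at least 1 array, while 47 probes did so on none. On all 4 LPS arrays 11 probes of 10 genes were above background, 10.8% of the members, against 14.9% of all probes on the array. All 4 probiotic arrays read 16 probes of 14 genes, 15.7% against 23.8% of all probes. Untreated arrays read 6 probes on all 4 arrays, 5.88% against 5.57% of all probes. Day 0 arrays read 5, 4.90% against 6.56% of all probes. The order of LPS and probiotic rested on array 4 of each: over arrays 1 to 3 the counts were 25 of 102 probes in LPS (30.9% of all probes), 20 in probiotic (31.1%), 8 in untreated (8.28%) and 10 in day 0 blood (18.0%).

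Only 4 members, 3.92% against 1.54% of all probes, were above background on all 16 arrays. These were WNT4 (a ligand), SFRP5 (a secreted Frizzled-like protein that binds Wnt ligands), DVL2 through probe A_73_116423, and TCF7L1 (a nuclear partner of beta-catenin that often acts as a repressor). WNT5A was above background on all LPS, probiotic and untreated arrays and on 1 day 0 array. APC through probe A_73_P078806 and the receptor FZD7 were above background on all arrays of the LPS and probiotic groups and of no other. LEF1 through probe A_73_P087266 was the only member above background on all untreated and all day 0 arrays and not on all arrays of the other groups. DVL2 through A_73_113149, FZD3 through A_73_P068791, GSK3A through A_73_106193 and WNT8B were above background on all 4 arrays in the LPS group alone. In the probiotic group alone these were APC through A_73_P312326, DKK2, DVL1, FZD1, FZD10, FZD3 through A_73_P085882, both named probes of GSK3B, and TCF7.

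By role, the cytoplasmic genes gave 4 of 18 probes on all LPS arrays, 6 on all probiotic arrays, 1 on all untreated arrays and 1 on all day 0 arrays. Receptors gave 2 of 32 probes in LPS and 4 in probiotic blood, and none in untreated or day 0 blood. Ligands gave 3 of 25 probes in LPS, 2 in probiotic, 2 in untreated and 1 in day 0 blood. Secreted inhibitors gave 1 of 16 in LPS, 2 in probiotic, 1 in untreated and 1 in day 0 blood. Nuclear factors gave 1 of 11 in LPS and 2 in each of the other groups. A signal on exactly 1 array of a group was seen for 17 members in LPS (16.7%, against 11.6% of all probes), 5 in probiotic (4.90% against 5.97%), 11 in untreated (10.8% against 14.7%) and 7 in day 0 blood (6.86% against 4.76%). Members that were tested below had a median GC content of 51.7%, against 45.0% for the other members. Over all probes the same medians were 45.0% and 43.3%.

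**Figure D1:**
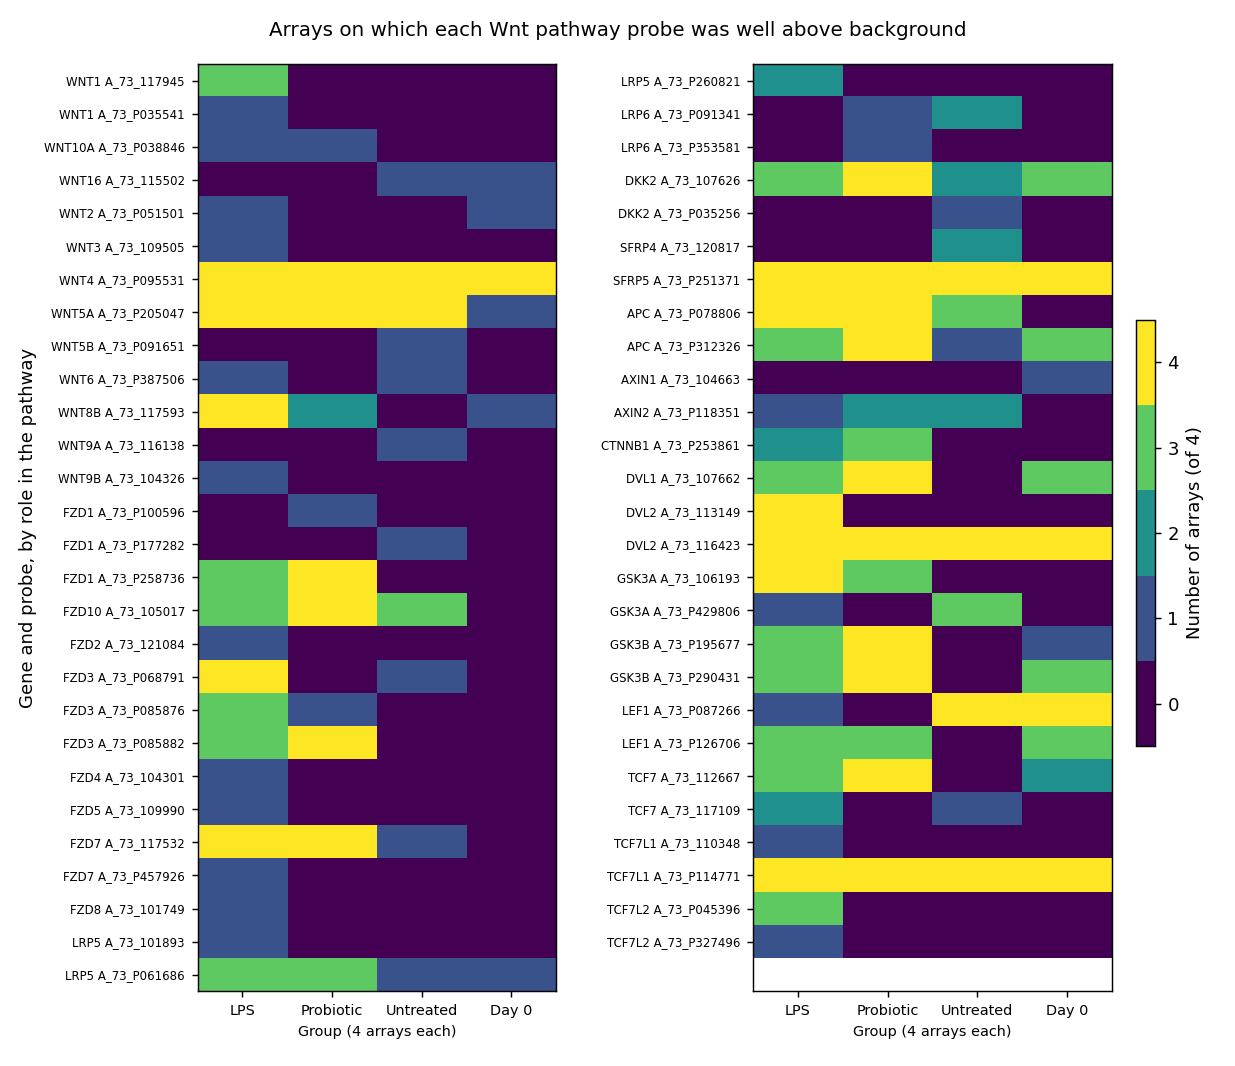
Number of arrays, of 4 per group, on which each of the 55 Wnt pathway probes seen at least once was well above background; columns are the groups, rows the probes ordered by role, and the colour gives the number of arrays. The 4 rows filled in every column are WNT4, SFRP5, DVL2 (A_73_116423) and TCF7L1. At least 1 array is marked for 45 probes in the LPS column, 27 in probiotic, 24 in untreated and 18 in day 0.

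Signals are given below as net signal, the spot's brightness less its background in scanner units, for arrays 1 to 4 in order. They were not scaled between arrays, so a value near or below 0 is a dim spot. Among the ligands, WNT4 read 435, 344, 323 and 305 in LPS and 409, 325, 304 and 291 in probiotic blood, against 264, 246, 358 and 303 in untreated and 374, 389, 232 and 74.3 in day 0 blood. These net signals overlapped in all 4 groups. WNT5A read 473, 535, 778.5 and 282 in LPS and 685, 894.5, 969 and 1091 in probiotic blood, against 927, 1206, 1030.4 and 1249.7 in untreated and 5.4, -0.6, 172 and -7.8 in day 0 blood. Every array drawn on day 60 was above every day 0 array for WNT5A, and array 3 was the only day 0 array above background.

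The tested receptor probes read at most 185.5 in LPS and 133 in probiotic blood. FZD10 read 164.5, 89.6, 55.9 and 5.0 in LPS and 82.0, 133, 92.3 and 73.3 in probiotic blood, against 27.4, 79.6, 131.5 and 283 in untreated and -3.4, -1.2, -4.8 and -6.1 in day 0 blood. All 4 day 0 arrays were below 0 and under every other array. FZD7, a receptor of the same family, read 185.5, 95.8, 68.8 and 51.7 in LPS and 86.1, 85.2, 60.5 and 114 in probiotic blood, against 129.6, 21.7, 24.3 and 96.5 in untreated and 25.3, 27.9, 28.5 and -2.4 in day 0 blood. Its LPS and probiotic arrays all lay above its day 0 arrays, while untreated arrays fell on both sides. FZD3 through A_73_P068791 read 50.1, 44.8, 43.9 and 75.4 in LPS and 35.5, 34.2, 34.6 and 35.1 in probiotic blood, against -23.7, 12, 785.5 and 5.6 in untreated and 0.3, 3.8, 2.3 and -11.1 in day 0 blood. The untreated value rested on array 3 alone. Its second probe, A_73_P085882, ranged from -17.2 to 154.6 in LPS and from 80.7 to 131 in probiotic blood, against -23.3 to -7.2 in untreated and -5.1 to 17.3 in day 0 blood, and was not above background on any untreated or day 0 array. Untested receptor probes gave single brighter spots on untreated array 2, at 464 for LRP5 (A_73_P061686) and 379 for FZD1 (A_73_P177282).

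Of the secreted inhibitors, SFRP5 read 486.5, 475.5, 709 and 478 in LPS and 1165, 934, 1073 and 1234 in probiotic blood, against 1164, 834, 775 and 907 in untreated and 62.2, 49.7, 135 and 164 in day 0 blood. The 4 day 0 arrays were the lowest, the LPS arrays came next, and probiotic and untreated arrays overlapped. DKK2, which blocks the LRP5 and LRP6 co-receptors, read 142, 126, 119 and 7.1 in LPS and 266, 131, 95.5 and 54.1 in probiotic blood, against 138.5, 189, 67.5 and 29.4 in untreated and 60.7, 64.5, 67.3 and -8.3 in day 0 blood. No 2 groups were separate for DKK2.

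**Figure D2:**
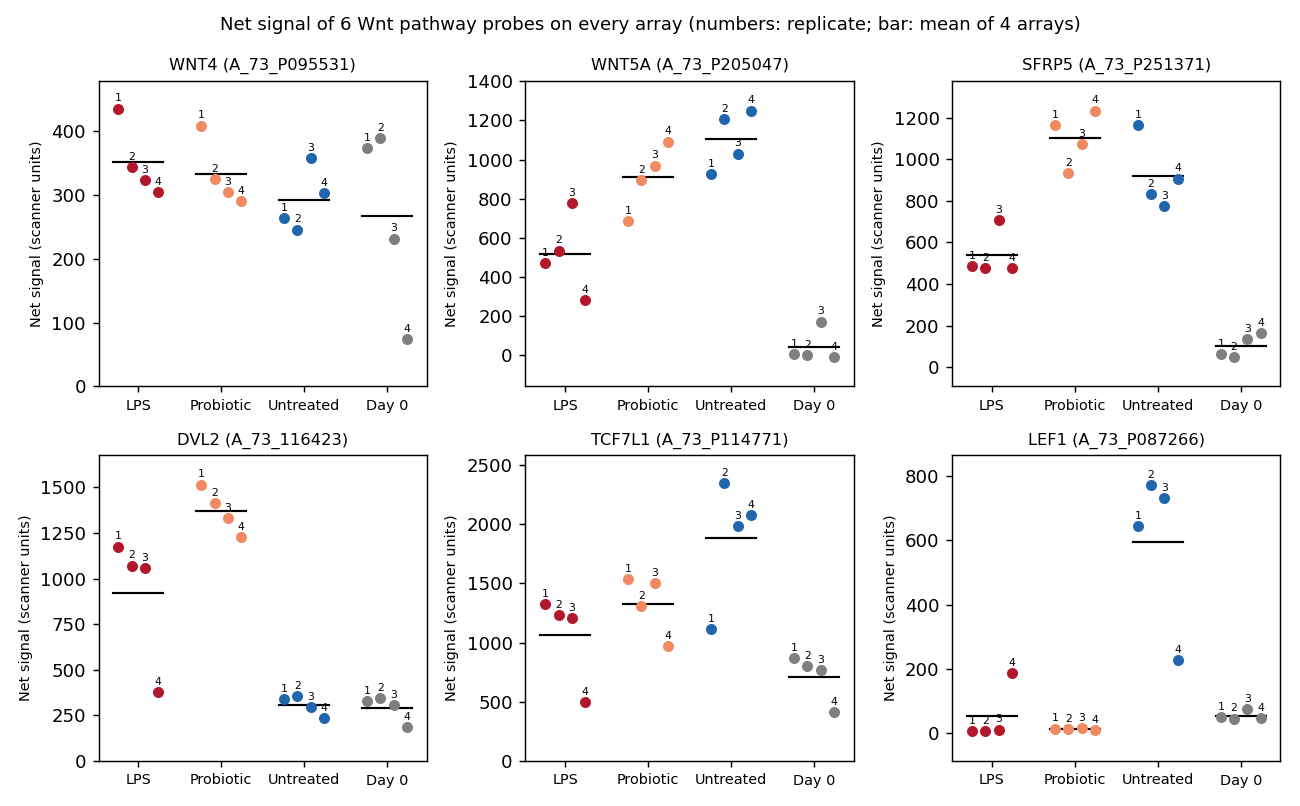
Net signal in scanner units (vertical axis, not scaled between arrays) of 6 Wnt pathway probes on every array of the LPS, probiotic, untreated and day 0 groups; the number beside a point is its replicate and the bar is the mean of 4 arrays. SFRP5 and WNT5A are low on all day 0 arrays, LEF1 is high on the untreated arrays, and LPS array 4 lies at 377 for DVL2 and 494 for TCF7L1, under the other LPS arrays.

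Of the 18 cytoplasmic probes, 5 followed 1 layout of net signal. These were both named probes of GSK3B, DVL1, DVL2 through A_73_116423 and APC through A_73_P312326. They were high in LPS and probiotic blood, apart from LPS array 4, and lower in untreated and day 0 blood. Array brightness had a similar layout. The signal by which arrays are scaled below was 1797 on LPS array 4 and 9824 to 11190.5 on the other LPS arrays. It was 7120 to 11944 on probiotic, 1076 to 1380 on untreated and 777 to 3025 on day 0 arrays. Without scaling, 44.1% of all tested probes were called higher in probiotic than untreated blood, and 77.2% higher than day 0 blood. The part of array brightness in this layout was not tested. GSK3B through A_73_P290431 read 2013, 2051, 2053 and 12.4 in LPS and 1759.8, 1581, 1910.5 and 895 in probiotic blood, against -30.5, 0.1, 23.7 and -42.1 in untreated and 449, 432, 398 and 8.0 in day 0 blood. The second GSK3B probe, A_73_P195677, had the same layout at 228, 281, 275 and 4.6 in LPS and 201, 136, 193 and 79.0 in probiotic blood, against -12.3, -4.4, 10.3 and -45.5 in untreated and 37.8, 28.3, 32.5 and 2.9 in day 0 blood. Neither GSK3B probe was above background on any untreated array. DVL1 read 1105, 1210.5, 1055 and 35.6 in LPS and 934, 987, 986 and 724 in probiotic blood, against 82.1, -7.8, 40.8 and -49.0 in untreated and 103, 88.1, 102 and 4.2 in day 0 blood.

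DVL2 through A_73_116423 read 1175, 1071, 1056.5 and 377 in LPS and 1516, 1415, 1333 and 1228 in probiotic blood, against 341, 355, 293 and 234 in untreated and 328, 342, 306 and 187 in day 0 blood. Probiotic arrays lay above all LPS arrays, and all 8 of these above all untreated and day 0 arrays. APC, the scaffold of the destruction complex, read 799, 809, 755 and 8.5 in LPS and 609.7, 580.1, 606 and 468 in probiotic blood through A_73_P312326, against 39.1, 14.7, 252 and -30.4 in untreated and 90.3, 109.9, 88.7 and 13.1 in day 0 blood. Its other tested probe, A_73_P078806, read 178, 177, 177 and 42.0 in LPS and 197, 167.5, 174 and 77.6 in probiotic blood, against 128, 87.2, 213 and -28.4 in untreated and 29.6, 28.8, 27.0 and 12 in day 0 blood. Untreated array 3 was the highest of all through that probe. The 2 APC probes differed in untreated blood, where 3 arrays were above background through the second and 1 through the first.

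DVL2 through A_73_113149 and GSK3A did not share that layout. DVL2 through A_73_113149 read 83.3, 345, 1179 and 62.5 in LPS and 9.7, 0.6, -8.5 and 14.8 in probiotic blood, against 4.8, -6.8, 34.9 and 56.1 in untreated and 27.9, 2.8, -0.6 and 3.1 in day 0 blood. GSK3A, a kinase close to GSK3B, read through A_73_106193 177, 738, 2810.0 and 54.1 in LPS and 1546, 1240.2, 1452 and -11.0 in probiotic blood, against -12.8, -14.1, 7.0 and -23.0 in untreated and -7.4, 0.7, -2.4 and -9.8 in day 0 blood. Within the 1 LPS pool both probes varied more than 10-fold between repeat arrays, with array 3 highest and array 4 lowest. Both sit in the middle of the slide, in rows 339 and 258 of 532. Over all probes in rows 250 to 350, the share above background was 25.3%, 39.3%, 53.5% and 19.3% on LPS arrays 1 to 4, the same order as these 2 probes. It was 37.7%, 34.3%, 38.8% and 17.3% on probiotic arrays, 12.2% to 14.4% on untreated arrays and 3.20% to 9.65% on day 0 arrays. The part of position in these signals was not tested. A further GSK3A probe, A_73_P429806, was left untested and ran the other way between probiotic and untreated blood. It read 16.7, 25.8, 59.6 and 9.3 in LPS and 41.6, -4.6, 11.6 and -3.4 in probiotic blood, against 134, 111, 116.5 and 72.2 in untreated and -0.6, -7.9, -11.3 and 0.3 in day 0 blood. It was above background on 3 untreated and no probiotic arrays, so the pair gives no direction for GSK3A as a gene.

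**Figure D3:**
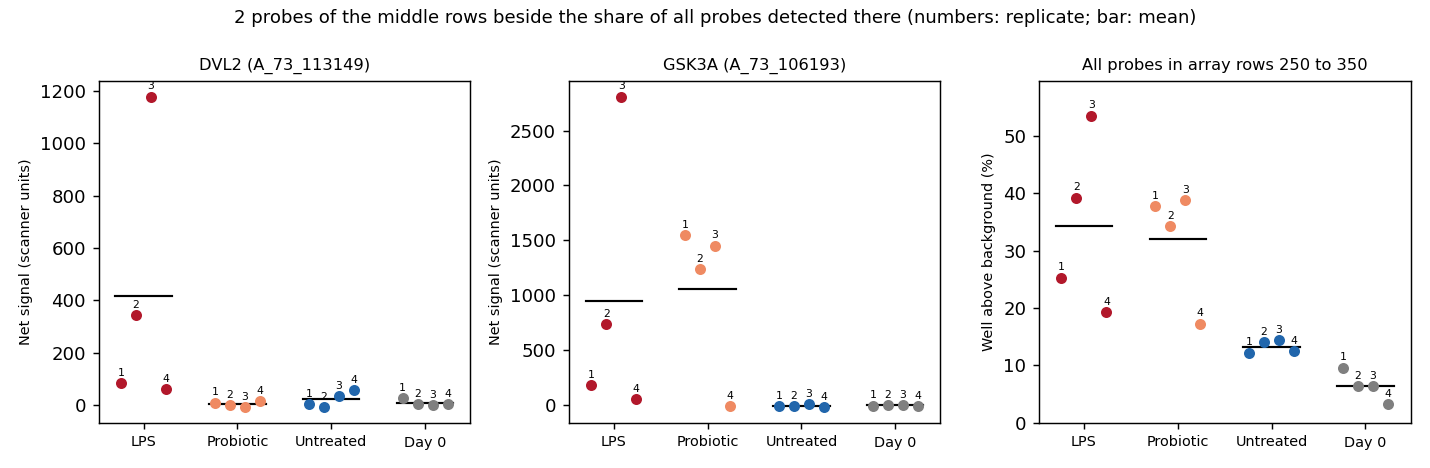
Net signal in scanner units of DVL2 (A_73_113149, left) and GSK3A (A_73_106193, centre), and the percentage of all probes in array rows 250 to 350 that were well above background (right), on each array of the 4 groups; numbers mark replicates and bars the mean of 4 arrays. On the LPS arrays all 3 panels run in the order of array 3, array 2, array 1 and array 4.

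Among the nuclear factors, TCF7L1 read 1326, 1229.6, 1209 and 494 in LPS and 1537, 1310.4, 1499 and 969 in probiotic blood, against 1116, 2349, 1982 and 2078 in untreated and 866, 800.0, 765 and 410.3 in day 0 blood. Day 0 was the lowest group apart from LPS array 4. TCF7, a factor of T cells, read 224, 229, 168 and 26.2 in LPS and 284, 303, 311.5 and 125 in probiotic blood, against 37.5, 55.4, 17.3 and 20.3 in untreated and 49.7, 38.2, 31.5 and -0.9 in day 0 blood. All probiotic arrays and LPS arrays 1 to 3 lay above all untreated and day 0 arrays. LEF1 gave opposite pictures through its 2 probes. A_73_P087266 read 4.8, 6.1, 10.4 and 186 in LPS and 13.1, 12.7, 14.4 and 8.0 in probiotic blood, against 645, 772.5, 732 and 228 in untreated and 49.7, 44.1, 75 and 44.9 in day 0 blood. A_73_P126706, shown because of that contrast after its values were seen, read 201, 620.4, 213 and 24.8 in LPS and 583, 458, 545 and 16.2 in probiotic blood, against 3.2, 59.5, 76.3 and 67.3 in untreated and 204, 144, 73.4 and -2.8 in day 0 blood. The first was above background on all untreated and no probiotic arrays, the second on 3 probiotic and no untreated arrays. No direction for LEF1 as a gene can be read from the pair.

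The remaining members are given by ranges and counts. WNT8B ranged from 39.9 to 84.4 in LPS and from 44.7 to 73.5 in probiotic blood, against -60.8 to 101.5 in untreated and 10.6 to 32.1 in day 0 blood. FZD1 through A_73_P258736 ranged from 11.5 to 54.4 in LPS and from 50.8 to 58.8 in probiotic blood, against 5.8 to 21.7 in untreated and -9.3 to 10.6 in day 0 blood. All probiotic arrays lay above all untreated and day 0 arrays for FZD1. For beta-catenin itself (CTNNB1), 1 of 4 probes was above background, on 2 LPS and 3 probiotic arrays and on no untreated or day 0 array, so no CTNNB1 probe was tested. The other members left untested, among them those of WNT1, LRP5, LRP6, SFRP4 and TCF7L2, were above background on at most 3 arrays of any group.

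For the fits, net signal was divided by each array's 75th percentile over the 671 probes detected everywhere, floored at the lowest scaled signal among that array's probes above background, and put on the log2 scale. That percentile was 1797 to 11190.5 scanner units on LPS arrays, 7120 to 11944 on probiotic arrays, 1076 to 1380 on untreated arrays and 777 to 3025 on day 0 arrays. Equal net signals thus became a lower scaled level in probiotic than in untreated or day 0 blood, so comparisons with untreated or day 0 arrays are given below with and without this step. A probe was tested if it was above background on all 4 arrays of at least 1 group, which left 21 members of 17 genes (20.6%, against 27.96% of all probes). limma was fitted to 12205 probes on all 16 arrays, and p-values were adjusted by Benjamini-Hochberg; a call needed an adjusted p below 0.05 together with a 2-fold or larger difference. A probe that passed through 1 group alone had to be bright there, so the filter itself favoured a higher value in that group. A difference is a bound for probes dim on all 4 arrays of 1 group and above background on all of the other. It is then written as "at least", under the stated scaling. Where the brighter group also had floored arrays, the fold depends on both floors and is no bound.

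Probiotic against untreated blood asks how 60 days of the supplement and water alone differed at the same time point. No member was called higher and 10 of 21 were called lower in probiotic blood, where 10.6% of all tested probes were called higher and 35.0% lower (unadjusted p under 0.05 in limma: 0 higher and 17 lower). Such unadjusted counts, here and below, apply no rule on dim spots. The 17 include DVL2 through A_73_113149, dim in both groups. They also include FZD1, WNT8B, TCF7, FZD3 through A_73_P085882 and GSK3B through A_73_P195677, dim on all untreated arrays, whose fitted direction comes from the floors. The median of all tested probes lay at -1.79 (log2) and that of the members at -2.92, so scaled values below are also given relative to the median of all tested probes. That median includes floored values. Over the 1825 probes above background on all arrays of both groups it was -3.02, with 74.7% called lower. Of the 5 members among them, 4 were called lower. TCF7L1 and WNT5A lay under -3.02, and WNT4 and SFRP5 above it. LEF1 through A_73_P087266 was at least 97.5-fold lower, a log2 difference of -6.61 ± 0.89 (SE, 4 arrays a group, adjusted p = 1.26e-05, limma) and of -4.82 relative to the median. It is the largest of the 10, and it was also called lower with no scaling at all, by at least 11.8-fold. TCF7L1 differed by -3.52 ± 0.35 (-1.73 relative to the median), WNT5A by -3.34 ± 0.57 (-1.55), FZD10 by -3.61 ± 0.56 (-1.82) and FZD7 by -3.34 ± 0.56 (-1.55). The further called members DKK2, APC through A_73_P078806, WNT4 and SFRP5 lay at -3.22, -2.92, -2.87 and -2.78, in that order, or -1.43 to -0.99 relative to the median. Mean net signal of these 4 ran the other way, at 137, 154, 332 and 1102 in probiotic and 106, 100, 293 and 920 in untreated blood. Their fitted direction thus depends on the scaling. DKK2 and the APC probe were above background on only 2 and 3 untreated arrays.

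Most of these calls were lost without scaling. With no scaling, 5 members were called higher and 2 lower in probiotic blood, where 44.1% of all probes were called higher and 10.3% lower. The 5 were GSK3B through A_73_P290431 (at least 14.8-fold), DVL1 (at least 9.03-fold), DVL2 through A_73_116423 (4.54-fold), APC through A_73_P312326 (4.30-fold) and TCF7 (at least 2.41-fold), and the 2 lower were LEF1 and FZD3. Of the 5, all but DVL2 passed the filter through the probiotic group alone, so their calls as higher there are no independent support. Without scaling, TCF7L1, WNT5A, FZD10 and FZD7 differed by -0.47, -0.29, -0.55 and -0.28 on the log2 scale and were not called. WNT4 and SFRP5 then lay at 0.18 and 0.27, above 0 and not called. With the percentile taken over all probes, 2 were called higher (31.9% of all probes) and 8 lower (22.2%). LEF1 and FZD3 through A_73_P068791 were called lower under each of these 3 scalings. The FZD3 call, 31.6-fold in the scaled fit, rested on untreated array 3, without which the probe was dim in both groups. FZD7 lost its call without untreated array 1, the only untreated array above background for it. Its scaled untreated mean, -3.56, lay near the -3.60 of probes dim on all untreated arrays. Mean net signal was 86.3 in probiotic and 68.0 in untreated blood, so the fitted -3.34 gives no direction for FZD7. Without day 0 array 4 and LPS array 4 together, 1 of 26 members was called higher (16.6% of all probes) and 11 lower (30.5%), LEF1 among them by at least 58.8-fold. In the scanner's processed signal WNT5A was not called (adjusted p = 0.0709, limma).

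Probiotic blood against day 0, the same arm before the supplement by its label, gave few calls among the scaled values. No member was called higher and 2 of 21 were called lower, where 1.88% of all tested probes were called higher and 3.83% lower (unadjusted p under 0.05 in limma: 2 higher and 8 lower). Those 8 include DVL2 through A_73_113149 and FZD3 through A_73_P068791, dim in both groups, and FZD1, dim on all day 0 arrays. WNT4 was 3.34-fold lower (log2 difference -1.74 ± 0.46, adjusted p = 0.0362) and TCF7L1 2.57-fold lower (-1.36 ± 0.35, adjusted p = 0.0334, limma). Both signs turned without scaling, where WNT4 lay at 0.56 and TCF7L1 at 0.94 (log2). Both calls were also lost with any of several single arrays left out, WNT4 without array 1, 2 or 3 of either group (6 of 8 fits) and TCF7L1 without any of these or probiotic array 4 (7 of 8). WNT5A lay at 1.84 ± 0.57 (adjusted p = 0.0678) and SFRP5 at 1.29 ± 0.69 (adjusted p = 0.224), neither called.

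The size of those differences again followed the scaling. With no scaling 13 members were called higher and none lower, where 77.2% of all probes were called higher and 1.05% lower. WNT5A (above background on 1 of 4 day 0 arrays) was then 17.6-fold and SFRP5 12.1-fold higher in probiotic blood, at log2 differences of 4.13 ± 0.49 and 3.59 ± 0.36, against a median of 2.31 over all probes. Without day 0 array 4 and LPS array 4 together, the scaled fit called 3 members higher (WNT5A, SFRP5 and DVL1, where 5.11% of all probes were called) and 5 lower (TCF7L1, WNT4, DKK2, LEF1 through A_73_P087266 and WNT8B, where 11.2% were called). With the percentile over all probes, 1 member was called higher (WNT5A, 1.93% of all probes) and 5 lower (9.29%), WNT4 and TCF7L1 among them. Without the 2 arrays WNT5A was 3.98-fold and SFRP5 3.65-fold higher, and WNT4 was 3.94-fold lower.

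**Figure D4:**
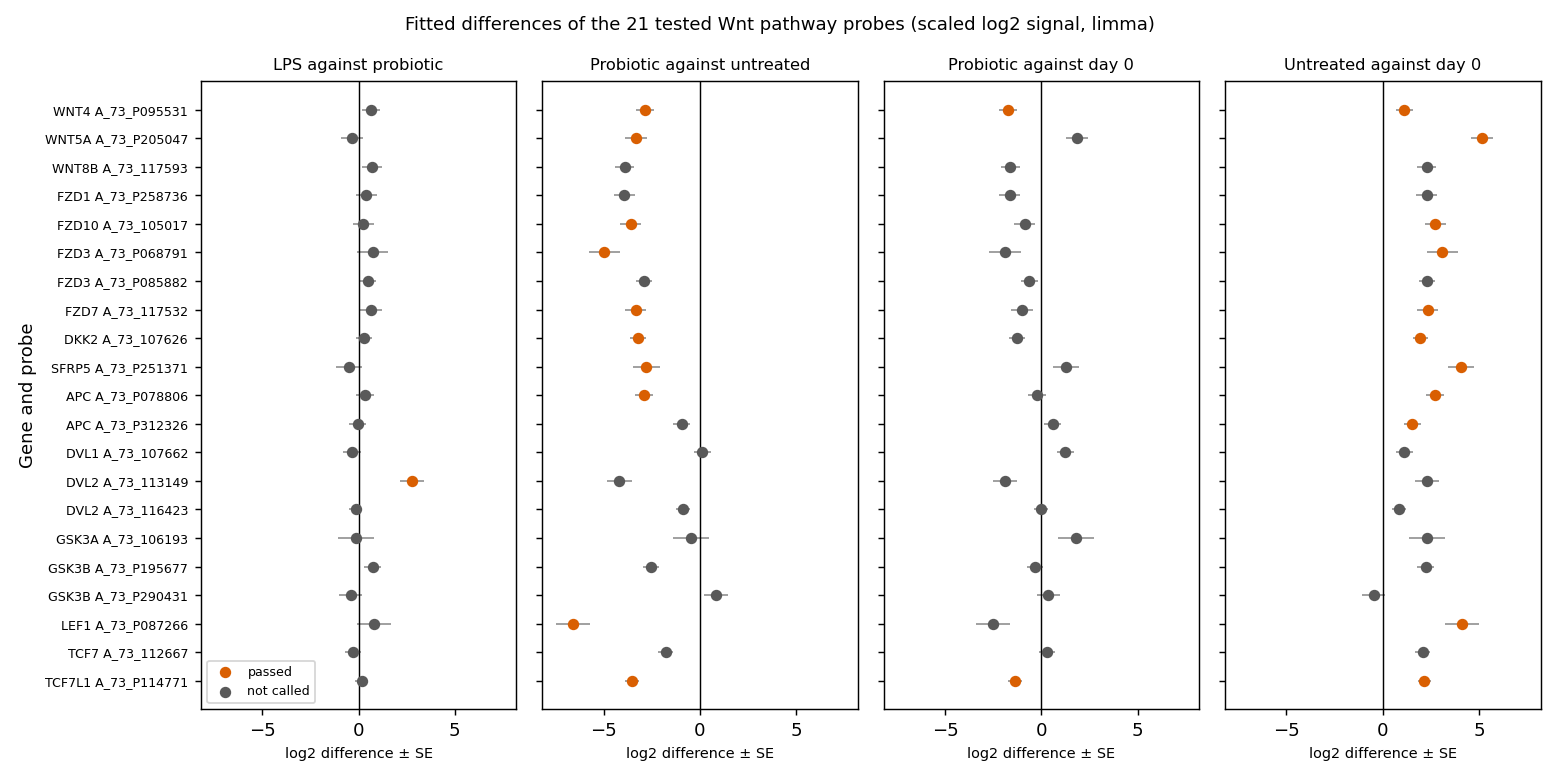
Fitted log2 differences of scaled signal with their SE (horizontal axis) for the 21 tested Wnt pathway probes (rows, by role) in the 4 comparisons; orange points passed the adjusted p and fold thresholds and grey points were not called. The LPS panel has 1 orange point, DVL2 (A_73_113149) at 2.78, while the panels with untreated arrays hold 10 orange points below 0 and 11 above 0.

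LPS against probiotic blood, both from supplemented cows on day 60, with and without lipopolysaccharide, had few differences in the Wnt set. The labels do not list the cows of each pool. Both groups were scanned on the same day. Here 1 of 21 members was called higher and none lower in LPS blood, where 1.5% of all tested probes were called higher and 0.107% lower (unadjusted p under 0.05 in limma: 1 higher and 0 lower). That member was DVL2 through A_73_113149, at least 6.89-fold higher (log2 difference 2.78 ± 0.63, adjusted p = 0.0298, limma). This probe passed the filter through the LPS group alone, so the filter favoured a higher value there. With only probes above background in both groups, DVL2 through A_73_113149 was left out by construction, and none of the 7 members tested was called. The signal of that DVL2 probe came mostly from LPS arrays 2 and 3, whose middle rows were also the most often above background of the 4 LPS arrays. The call was lost without probiotic array 1, 2 or 3 or LPS array 2 or 3, at an adjusted p of 0.053 to 0.104, and in a fit of these 2 groups alone, at 0.196. With no scaling no member was called in either direction (0.5% of all probes higher, 0.41% lower). DVL2 through A_73_113149 was the 1 call with the percentile over all probes (1.2% higher, 0.287% lower) and without the 2 arrays that stood apart (4.19% higher, 0.809% lower). The other DVL2 probe, A_73_116423, lay at -0.15 ± 0.35 (adjusted p = 0.954). The remaining 20 members lay between -0.50 and 0.79, with adjusted p of 0.931 or more. SFRP5, whose net signal was lower on every LPS than on every probiotic array, lay at -0.50 ± 0.69 after scaling and at -1.05 ± 0.36 without it (adjusted p = 0.365). LPS array 4 was divided by 1797 and the other LPS arrays by 9824 to 11190.5, which raised the scaled values of array 4. Over arrays 1 to 3 the mean net signal of SFRP5 was 557 in LPS and 1057 in probiotic blood. LPS blood was thus not shown to differ from probiotic blood in any Wnt ligand, receptor or secreted inhibitor. Each group was a single pool on 4 repeat arrays.

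Untreated blood on day 60 against day 0 compared, by the labels, different cows at different times. Here 11 of 21 members were called higher and none lower in untreated blood, where 35.2% of all tested probes were called higher and 6.78% lower (unadjusted p under 0.05 in limma: 20 higher and 0 lower). Those 20 include GSK3A, DVL2 through A_73_113149, FZD3 through A_73_P085882 and FZD1, dim on all arrays of both groups. Their shared log2 difference of 2.29 is the gap between the floors. TCF7, WNT8B, DVL1 and GSK3B through A_73_P195677, also among the 20, were dim on all untreated arrays. WNT5A was 36.1-fold higher (log2 difference 5.18 ± 0.57, adjusted p = 6.43e-06, and 3.26 relative to the median of 1.92 over all tested probes), a fold that depends on the floor, since 3 of the 4 day 0 arrays were below background. LEF1 through A_73_P087266 was 17.4-fold higher (4.12 ± 0.89, or 2.20 relative to the median) and SFRP5 16.9-fold higher (4.08 ± 0.69, or 2.16), by limma at adjusted p of 0.000729 and 0.000217. FZD3 through A_73_P068791, FZD10 and APC through A_73_P078806 were fitted 8.54-fold, 6.68-fold and 6.5-fold higher, the first again through untreated array 3 alone. They were above background on 1, 3 and 3 untreated arrays and on no day 0 array, so these folds depend on the floors. FZD7, above background on 1 untreated array, was fitted 5.04-fold higher, at a log2 difference of 2.33, against 2.29 for the probes dim in both groups. TCF7L1, DKK2, APC through A_73_P312326 and WNT4 made up the rest, at log2 differences of 2.16, 1.96, 1.53 and 1.13. The last 2 were below the median of all tested probes. APC through A_73_P312326 was above background on 1 untreated and 3 day 0 arrays, at mean net signals of 68.8 and 75.5. Its fitted 1.53 thus depends on the untreated floors and gives no direction for this probe. DKK2 was above background on 2 untreated and 3 day 0 arrays, so its value also depends in part on the floors.

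Without scaling, 8 members were called higher and none lower (26% and 6.46% of all probes), among them WNT5A at 21.5-fold, LEF1 at 10.3-fold and SFRP5 at 10.01-fold. Taking the percentile over all probes left 2 called higher, WNT5A and SFRP5 (6.14% of all probes), and 2 lower, GSK3B through A_73_P290431 and DVL2 through A_73_116423 (27.0%). Without day 0 array 4 and LPS array 4 together, 10 of 26 members were called higher (29.1%) and 1 lower (15.4%), the GSK3B probe at 3.43-fold. WNT5A and SFRP5 were called higher in untreated blood under each of these scalings and without those 2 arrays. In the scanner's processed signal, which on 3 of the 4 day 0 arrays was rescaled across the slide, WNT5A lay at 1.07 (adjusted p = 0.60), LEF1 at 0.33 (0.895) and SFRP5 at -0.14 (0.951) in limma, none called. Both comparisons with day 0 use the same 4 day 0 arrays, and both comparisons with untreated blood the same 4 untreated arrays, so their values are not independent of each other.

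Other genes of the pathway were taken from a list of 66, of which 62 were on the array with 130 probes. Of these, 39 probes of 27 genes were tested. In probiotic against untreated blood 2 were called higher and 12 lower (5.13% and 30.8%, against 10.6% and 35.0% of all tested probes), with a median of -1.64 against -1.79 over all tested probes. Without scaling the split was 19 higher and 1 lower. RHOA, a small GTPase of the branch without beta-catenin, read 12416, 11731, 11476 and 10312 in probiotic blood, against 2.7, 11.7, -7.7 and 10.5 in untreated blood. It was at least 13.8-fold higher (log2 difference 3.79 ± 0.33, or 6.84 without scaling). JUN, an immediate early gene downstream of many signals, read 0.7, -2.2, 3.6 and 0.7 in probiotic blood, against 285, 2386, 154.5 and 160.4 in untreated blood, and was at least 65.4-fold lower (-6.03 ± 0.78, or -2.98 without scaling). CCND1, the cyclin D1 gene and a classical beta-catenin target, read 122.7, 112, 96.8 and 93.7 in probiotic blood, against 161, 168, 233 and 229.5 in untreated blood (-3.94 ± 0.46, or -0.89 without scaling). LGR5, a receptor for R-spondins, read 61.8, 53.4, 50.2 and 37.1 in probiotic blood, against 13.3, 20.0, 22.7 and 256.5 in untreated blood. Untreated array 4 was the only one of its group above background, and the other 3 lay under every probiotic array, so the fitted -4.23 ± 0.89 (-1.18 without scaling) gives no direction for LGR5.

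In probiotic blood against day 0 none of the 39 was called by limma in either direction, although 32 were called higher without scaling and 1 lay higher and 8 lower at an unadjusted p under 0.05. LPS against probiotic blood gave none in either direction with or without scaling, and none at an unadjusted p under 0.05. In untreated blood against day 0, 11 were called higher and 2 lower (28.2% and 5.13%, against 35.2% and 6.78% of all tested probes). FRZB, a secreted Frizzled-related inhibitor, read 317, 362, 431 and 609.3 in untreated blood, against 40.9, 86.7, 94.1 and 4.1 in day 0 blood (log2 difference 3.55 ± 0.60, or 2.80 without scaling). JUN lay at 3.90 ± 0.78, with 1 of 4 day 0 arrays above background, and CCND1 was at least 9.58-fold higher, while RHOA was at least 14.3-fold lower. RHOA read 3353, 3234, 3377 and 912 on the day 0 arrays.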

How the data were processed

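The authors deposited Agilent Feature Extraction 10.10.1.1 output for 16 one-colour arrays, per the file headers and the submitters' processing notes, with the array design on the UMD 3.1 assembly. Spot intensities in these deposited files are background-subtracted and not normalized between arrays. Processed intensities of 4 arrays also carry a multiplicative detrending by the authors' scanner software, per the file headers, so the background-subtracted column was used. A deposited table of the authors' normalized averages, on a log scale taken as log2, gave symbols, probe sequences and an alternative, its centring unknown. No column belonged to other samples (0).

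Control spots (1417) and outlier spots were left out. Values were scaled, floored, tested with limma 3.58.1 in R 4.3.3 (lmFit, eBayes, two-sided, 16 arrays, no covariates, tested on simulated data) and adjusted over 12205 probes. RefSeq names came from a table of assembly ARS-UCD2.0, so no coordinates are given. Members, lists and tests were chosen with earlier results of these data known. Named with values on every array were members above background on all 16, up to 6 called per comparison by size, and up to 8, by signal, above background in exactly 1 group. Alternatives were other signal columns and scalings, floors, filters, samples in the fit, a replicate block, the deposited averages and each array left out. As the files hold no mean signal column, normexp (offset 50) with quantile normalization used median spot and background signals. The 4 repeat arrays of a group limit the precision, and a single pool per group gives no measure of differences among cows.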

Additional observations from a re-analysis of the deposited data

Results flagged for a closer look

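Among 76 groups of 4 arrays of the named probes, 18 held 1 array far from its 3 others by Dixon's test, which chance gives in about 1 of 20 groups. Of these, 8 lay on LPS array 4 and 5 on day 0 array 4. On LPS array 4 the net signals were 42.0 for APC A_73_P078806, 8.5 for APC A_73_P312326, 7.1 for DKK2, 35.6 for DVL1, 377 for DVL2 A_73_116423, 12.4 for GSK3B A_73_P290431 and 494 for TCF7L1, each below the other 3, and 186 for LEF1 A_73_P087266, above the 4.8 to 10.4 of the others. On day 0 array 4 they were 12 for APC A_73_P078806, -8.3 for DKK2, 4.2 for DVL1, -2.4 for FZD7 and 8.0 for GSK3B A_73_P290431, each below the other 3. The other 5 were FZD3 A_73_P068791 at 785.5 on untreated array 3 (others -23.7 to 12), WNT5A at 172 on day 0 array 3 (others -7.8 to 5.4), SFRP5 at 709 on LPS array 3 (others 475.5 to 486.5), DVL2 A_73_113149 at 27.9 on day 0 array 1 (others -0.6 to 3.1) and TCF7 at 125 on probiotic array 4 (others 284 to 311.5).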

How the results depend on the processing

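Called members changed mostly with the scaling. Where a count moved, the cause was not tested. Calls over all probes moved as well. In probiotic against untreated blood normexp called 37.9% of all probes higher and a floor of 1 scanner unit 38.3%. Of probes above background in both groups, 74.7% were called lower. In probiotic blood against day 0 the processed signal called 41.1% higher and the deposited averages 59.0%. In LPS against probiotic blood the averages called 59.7% lower. In untreated blood against day 0 normexp called 17.8% higher and 29.8% lower. In probiotic against untreated blood, members called higher (0) became 3 under normexp, 2 with the percentile over all probes, 5 with no scaling, 4 with a floor of 1 scanner unit and 1 without day 0 array 4 and LPS array 4, chosen after seeing the data; those called lower (10) became 5, by construction 22 with no filter on dim probes and 4 with probes above background in both groups, 2 with no scaling and 5 in the deposited averages. In probiotic blood against day 0, higher calls (0) became 5 with processed signal, 1 with the percentile or the median over all probes, 13 with no scaling, 2 with the low floor or no filter, 1 in a 2-group fit, 13 in the averages and 3 without those 2 arrays; lower calls (2) became 1 under normexp or the low floor, 5 with the percentile over all probes or without the 2 arrays, 0 with the median, no scaling or the averages, and 9 with no filter. In LPS against probiotic blood the 1 higher call became 0 under normexp, the median, no scaling and a 2-group fit. With probes in both groups it became 0 by construction. The averages gave 2 higher and also 8 lower (0 lower otherwise). In untreated blood against day 0 the 11 higher calls became 5 under normexp or the median, 2 with the percentile over all probes, 22 with no filter and 4 with probes in both groups; 1, 2, 2 and 1 were called lower under normexp, that percentile, the low floor and without the 2 arrays. Signs reversed for FZD3 A_73_P068791 (0.26, normexp) and WNT5A (0.31, averages) against untreated, for WNT4 (0.56 with no scaling, 3.46 averages) and TCF7L1 (0.50 processed signal, 0.94 no scaling, 5.03 averages) in probiotic against day 0, and for SFRP5 (-0.14, processed signal) in untreated against day 0. Leaving out 1 array gave 0 to 0 higher and 9 to 11 lower, 0 to 2 and 0 to 3, 0 to 1 and 0 to 0, and 8 to 11 and 0 to 1 in the 4 comparisons in that order. Members above background on all arrays then numbered 11 to 25 in LPS, 16 to 20 in probiotic, 6 to 8 in untreated and 5 to 10 in day 0 blood; the scanner's other call (positive and significant) gave 35, 27, 15 and 10, and 3 of 4 arrays gave 25 in LPS and 10 in day 0 blood. Replicate numbers did not pair the arrays (same-number correlations of -0.202 to 0.675, with 8 of 16 arrays closest to their own number); the replicate block moved only the probiotic against day 0 counts, to 1 higher and 4 lower. Dim signals limit all of this.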
